A study of Mus musculus with 10 samples.

Results

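The genes described here are 30 that microglia express at high level in the undisturbed brain, together with 3 transcription factors of microglial identity counted among them: Sall1, Mef2a and Mef2c. They were listed by name, and each was read from the brightest array probe that the platform annotation assigns to that gene alone. Of the 30 listed genes, 26 had such a probe, and all 26 passed the filter on dim genes, out of 19749 genes with a probe of their own and 10792 genes tested. Rnase4 and Ang shared 1 probe and could not be read apart, and no listed probe named Serpine2 or Tspan7. Purinergic and TGF-beta pathway genes were kept out of the list and are given at the end as separate lists.

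RNA came from microglia purified by flow cytometry from male C57BL/6 mice (WT) or from Trem2-/- mice, all 8 to 12 weeks old per the labels. The same age range is given for every library, whatever the feeding time. Age at collection is therefore not known and may differ between feeding times. Cuprizone, which chelates copper, kills oligodendrocytes when fed to mice and so removes myelin. Each genotype gave 5 libraries, 1 array each: mice on control diet, mice fed 0.2% cuprizone for 4 or for 12 weeks, and mice that received normal food for 2 weeks after each of these feeding times. Thus the cuprizone and the recovery group of a genotype held 2 libraries each, and the control group held 1. The labels do not say how many mice gave each library, and they name no promoter or cell type to which the deletion was limited. The Trem2-/- library titled as 12 weeks of cuprizone carries a time label of 4 weeks, and it was counted by its title.

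Microglia, the macrophages that live in brain tissue, hold in health a homeostatic programme of surface receptors, transporters, enzymes and secreted proteins, which depends on TGF-beta signalling and on transcription factors such as Sall1 and the MEF2 family. Near dying cells and myelin debris this programme is known to recede while lipid-handling and lysosomal genes come up, and Trem2, a lipid-sensing receptor of microglia, is known to be needed for much of that shift.

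The search used the RefSeq promoter table of the mouse build GRCm38.p6 and covered 32 windows for 24 of the 30 genes. The windows ran from 250 bases before to 50 bases after a transcript start. Bin1, Ecscr, Gal3st4, Pmepa1, Selplg and Tmem119 were not searched, whether or not that table holds them. The members' shares below leave these genes out and do not cover the whole list. Each window was searched on both strands. The letters were GGAAGT for PU.1, the lineage factor of macrophages, and CTANNNNTA for MEF2 factors. Those for SMAD proteins, which act downstream of TGF-beta, were CAGACA, and the box bound by basal transcription factors was searched as TATAAA. The 4 sets of letters were counted separately, and a MEF2 stretch can match itself on the other strand. GGAAGT occurred in 34.4% of the members' windows and 23.8% of all 32817 windows, and CAGACA in 37.5% against 21%. The MEF2 letters were found in 18.8% against 21%, and TATAAA in 25% against 13.6%. The windows below are those of the identity factors Sall1 and Mef2a, of the receptor gene Siglech and the transporter gene Slc2a5, which carry the results below, and the window that Rnase4 and Ang have in common. They are printed 5′ to 3′ on the gene's strand, with the matches in capitals.
Sall1, chr8:89042813-89043112, minus strand: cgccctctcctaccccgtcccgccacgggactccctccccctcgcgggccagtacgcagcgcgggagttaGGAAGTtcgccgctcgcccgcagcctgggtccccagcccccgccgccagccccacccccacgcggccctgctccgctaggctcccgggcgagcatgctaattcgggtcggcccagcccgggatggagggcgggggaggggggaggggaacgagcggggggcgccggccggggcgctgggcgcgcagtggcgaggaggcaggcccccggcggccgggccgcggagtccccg
Mef2a, chr7:67372809-67373108, minus strand: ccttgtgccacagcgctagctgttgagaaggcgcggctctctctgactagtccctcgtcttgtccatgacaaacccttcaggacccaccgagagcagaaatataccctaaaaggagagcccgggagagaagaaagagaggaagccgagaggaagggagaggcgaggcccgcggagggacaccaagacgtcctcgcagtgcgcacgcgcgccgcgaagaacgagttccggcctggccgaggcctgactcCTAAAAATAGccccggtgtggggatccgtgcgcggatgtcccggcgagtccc
Siglech, chr7:55767934-55768233, plus strand: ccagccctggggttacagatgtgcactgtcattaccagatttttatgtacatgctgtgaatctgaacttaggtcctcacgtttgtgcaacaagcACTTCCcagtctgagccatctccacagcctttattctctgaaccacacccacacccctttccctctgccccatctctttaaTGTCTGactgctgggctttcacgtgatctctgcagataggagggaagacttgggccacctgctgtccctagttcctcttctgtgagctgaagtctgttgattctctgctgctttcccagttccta
Slc2a5, chr4:150119094-150119393, plus strand: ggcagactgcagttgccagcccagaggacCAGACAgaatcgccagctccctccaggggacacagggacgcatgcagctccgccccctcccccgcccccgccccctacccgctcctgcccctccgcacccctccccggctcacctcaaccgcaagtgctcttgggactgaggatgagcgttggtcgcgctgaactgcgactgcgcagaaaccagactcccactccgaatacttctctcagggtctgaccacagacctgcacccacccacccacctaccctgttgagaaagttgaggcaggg
Rnase4 and Ang, chr14:51090827-51091126, plus strand: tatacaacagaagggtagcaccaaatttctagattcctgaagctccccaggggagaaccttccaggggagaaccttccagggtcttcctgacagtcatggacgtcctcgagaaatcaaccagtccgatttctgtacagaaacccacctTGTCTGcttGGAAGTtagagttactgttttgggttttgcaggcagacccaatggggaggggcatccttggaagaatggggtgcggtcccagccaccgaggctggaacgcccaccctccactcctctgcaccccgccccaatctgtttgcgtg
In the Sall1 window the capitals are the PU.1 letters, and the other 2 windows listed for Sall1 held none of the 4 motifs. The Mef2a window held 1 stretch that reads as the MEF2 letters on both strands, so the gene of a MEF2 factor had its own family's letters beside its start. Siglech and the common window of Rnase4 and Ang each held 1 PU.1 and 1 SMAD match, and Slc2a5 held 1 SMAD match. These matches are letters only, and no binding was measured.

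All values below are log2 of the deposited intensity, and differences are on that log2 scale, so that 1 unit is a doubling. The submitters' sample numbers form 2 runs: the first holds the controls and all 4-week libraries (6 arrays), and the second holds all libraries titled 12 weeks (4 arrays). The split by feeding time is also the split by run, so these cannot be told apart, and the second run holds no control. A run here is one of sample numbers, and whether the arrays were also processed apart is not known. Trem2 itself lay between 10.66 and 10.81 in the 5 WT libraries and between 7.26 and 7.85 in the 5 Trem2-/- libraries. Defining microglial genes were bright in every library. The 5 measured were Csf1r, Itgam, Aif1, C1qa and P2ry12, the last a purinergic gene of the kind kept out of the list. Their summed intensity was between 13100 and 15100 in the first run and between 10400 and 11900 in the second. Signal of other cells was present too. Neutrophil markers (7 measured, of which Ly6g stayed below the table's median of 5.27 everywhere) summed to between 4450 and 13100 in the first run and between 158 and 311 in the second. Border macrophage markers (7 measured, each above that median in at least 2 arrays) summed to 1710 in the WT control and 1200 in the Trem2-/- control, to between 3640 and 4160 in the fed and recovered libraries of the first run, and to between 1540 and 1910 in the second run. Of the markers of neurons, 5 of 6 were below the table's median in every library, as were 4 of 6 of endothelium, 3 of 7 of astrocytes and 2 of 5 of oligodendrocytes. The part of these cells in the results below was not tested. In sorted cells measured in bulk, fewer cells of a type and less RNA per cell cannot be told apart.

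The members were bright genes: 24 of the 26 were in the brightest 10% of the genes tested by mean level, and the dimmest, Gal3st4, was at percentile 79. In WT microglia all 26 were lower on cuprizone than in the control, at both feeding times, with a median of 79.5% of the control's intensity at 4 weeks and 61% at 12 weeks. In Trem2-/- microglia the median member stood at 99.3% of the control at 4 weeks and at 77.4% at 12 weeks. Both controls are of the first run and the 12-week libraries are of the second. The 12-week shares thus include the difference between runs and cannot be read as the diet's effect alone. Within the cuprizone libraries all 26 were higher in Trem2-/- than in WT on average over both feeding times. None of these differences passed the test for a single gene. The difference that did pass was that between libraries titled 12 and 4 weeks, where 18 of 26 members fell, against 12.1% of all genes.

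**Figure D1:**
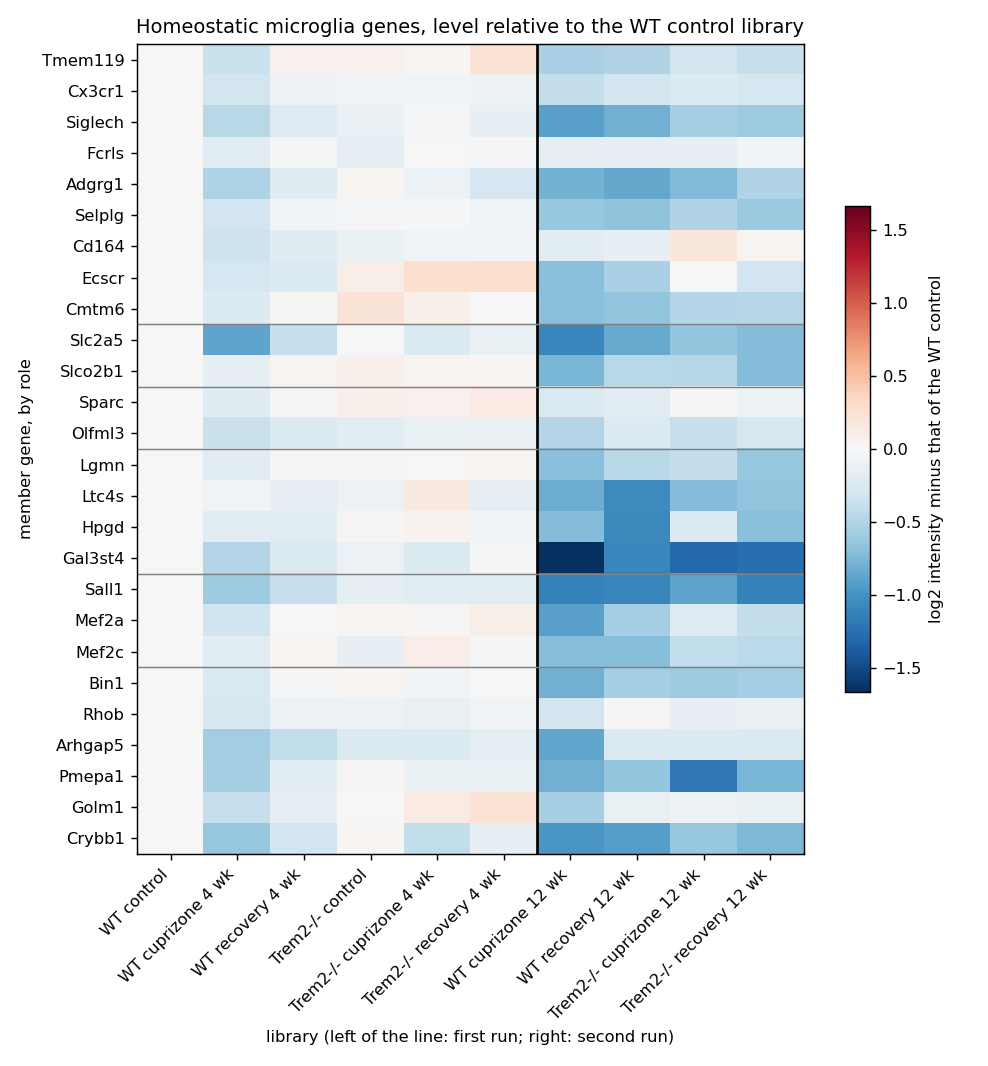
Each cell is the log2 intensity of a member (rows, ordered by role) in a library (columns) minus that in the WT control, from blue (lower) to red (higher). The vertical line separates the first run from the second. The WT 4-week cuprizone column is blue in all 26 rows, the 3 Trem2-/- columns of the first run are close to white, and most rows are blue in the 4 columns of the second run.

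The transcription factors are given first. Sall1, a zinc finger factor that keeps microglia distinct from other macrophages, stood at 10.75 in the WT control, 10.16 and 9.62 after 4 and 12 weeks of cuprizone, and 10.37 and 9.67 in the matching recovery libraries. In Trem2-/- microglia Sall1 stood at 10.60 in the control, 10.58 and 9.87 on cuprizone, and 10.58 and 9.63 in recovery. The 3 Trem2-/- libraries of the first run lay within 0.02 of each other for Sall1, whereas the WT libraries of that run spanned 0.59. Mef2a, a MADS-box factor whose targets include microglial genes, was at 11.03 in the WT control, 10.69 and 10.13 on cuprizone and 11.04 and 10.46 in recovery. In Trem2-/- it was at 11.07, then 11.05 and 10.82 on cuprizone and 11.13 and 10.64 in recovery. The related Mef2c was at 10.32 in the WT control, 10.14 and 9.61 on cuprizone and 10.35 and 9.61 in recovery, against 10.19, then 10.42 and 9.91, then 10.28 and 9.87 in Trem2-/-. For each of the 3 factors the WT cuprizone library was the lowest of the first run, and every library of the second run except the 12-week Trem2-/- cuprizone library of Mef2a was below every library of the first run.

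Among surface receptors and membrane proteins, 9 of 10 were measured. Siglech, a sialic acid-binding lectin receptor, was at 11.93 in the WT control, 11.47 and 11.03 on cuprizone after 4 and 12 weeks, and 11.72 and 11.13 in recovery. In Trem2-/- it was at 11.83, then 11.92 and 11.38 on cuprizone and 11.80 and 11.34 in recovery. Tmem119, a membrane protein used to mark microglia, was at 11.33 in the WT control, 10.95 and 10.78 on cuprizone and 11.40 and 10.83 in recovery. Its WT level after 4 weeks and recovery was thus slightly above the control's. In Trem2-/- Tmem119 was at 11.40, then 11.36 and 11.02 on cuprizone and 11.55 and 10.94 in recovery. Adgrg1, an adhesion G protein-coupled receptor, was at 10.08 in the WT control, 9.57 and 9.30 on cuprizone and 9.88 and 9.24 in recovery, and in Trem2-/- at 10.12, then 9.99 and 9.35, then 9.81 and 9.59. Selplg, the P-selectin ligand and the brightest member, was at 12.76 in the WT control, 12.44 and 12.13 on cuprizone and 12.71 and 12.09 in recovery, and in Trem2-/- at 12.73, then 12.74 and 12.26, then 12.70 and 12.15. For both genes the WT recovery library of the second run was slightly below the WT cuprizone library of that run.

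Ecscr, a chemotaxis receptor first described in endothelium, had the largest difference between the genotypes on cuprizone and over all 5 diets when libraries were pooled, though not at 4 weeks alone, where Slc2a5 differed more. It was at 10.40 in the WT control, 10.10 and 9.70 on cuprizone and 10.17 and 9.85 in recovery. In Trem2-/- Ecscr was at 10.49, then 10.66 and 10.40 on cuprizone and 10.66 and 10.08 in recovery, so that each Trem2-/- library exceeded the WT library of the same diet. Cmtm6, a membrane protein that stabilises PD-L1, was at 10.88 in the WT control, 10.65 and 10.18 on cuprizone and 10.89 and 10.21 in recovery, and in Trem2-/- at 11.09, then 10.96 and 10.39, then 10.87 and 10.40. The remaining members of this class varied less. The fractalkine receptor gene Cx3cr1 ranged from 12.14 in WT at 12 weeks of cuprizone to 12.53 in the WT control. The scavenger receptor-like gene Fcrls spanned only 0.17 over the 10 libraries, from 11.66 to 11.83. The sialomucin gene Cd164 ranged from 11.21 in WT at 4 weeks of cuprizone to 11.73 in Trem2-/- at 12 weeks.

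Of the transporters, the fructose transporter gene Slc2a5 was at 9.75 in the controls of both genotypes. On cuprizone it was at 8.88 and 8.66 in WT and at 9.51 and 9.11 in Trem2-/-. After recovery it was at 9.36 and 8.91 in WT and at 9.64 and 9.03 in Trem2-/-. Slc2a5 had the largest WT difference of the 26 at 4 weeks, to 54.6% of the control's intensity, against 84.3% in Trem2-/-. Slco2b1, an organic anion transporter, was at 10.44 in the WT control, 10.28 and 9.69 on cuprizone and 10.49 and 9.98 in recovery, and in Trem2-/- at 10.53, then 10.49 and 9.97, then 10.47 and 9.72. Its first-run libraries differed little and all exceeded those of the second run.

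The 4 enzymes were the class with the lowest median difference between feeding times (-0.68). Gal3st4, a galactose sulfotransferase and the dimmest member, was at 8.77 in the WT control, 8.29 and 7.10 on cuprizone and 8.53 and 7.69 in recovery, and in Trem2-/- at 8.67, then 8.52 and 7.47, then 8.74 and 7.52. Ltc4s, the leukotriene C4 synthase, was at 10.20 in the WT control, 10.14 and 9.37 on cuprizone and 10.04 and 9.14 in recovery, and in Trem2-/- at 10.10, then 10.35 and 9.48, then 10.04 and 9.55. Ltc4s was the single member for which the WT 4-week cuprizone library was not the lowest of the first run. Hpgd, which inactivates prostaglandins, was at 11.40 in the WT control, 11.21 and 10.68 on cuprizone and 11.22 and 10.32 in recovery, and in Trem2-/- at 11.42, then 11.46 and 11.16, then 11.36 and 10.71. Lgmn, a lysosomal cysteine protease, was at 12.23 in the WT control, 12.04 and 11.54 on cuprizone and 12.21 and 11.77 in recovery, and in Trem2-/- at 12.20, then 12.23 and 11.84, then 12.28 and 11.61. For each of the 4 enzymes all libraries of the second run were below all libraries of the first.

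Among signalling, trafficking and other members, Arhgap5, a GTPase-activating protein, is given first. In WT it was at 9.22 in the control, 8.64 and 8.36 on cuprizone and 8.81 and 8.98 in recovery. In Trem2-/- it stayed between 8.97 and 9.06 in all 5 libraries. Golm1, a Golgi membrane protein, was at 9.49 in the WT control, 9.11 and 8.94 on cuprizone and 9.34 and 9.37 in recovery, and in Trem2-/- at 9.50, then 9.62 and 9.41, then 9.72 and 9.36. As with Arhgap5, the 2 lowest libraries were those of WT on cuprizone. Crybb1, a beta-crystallin, was at 10.26 in the WT control, 9.63 and 9.29 on cuprizone and 9.94 and 9.34 in recovery, and in Trem2-/- at 10.28, then 9.84 and 9.63, then 10.12 and 9.51. Pmepa1, a TGF-beta-induced inhibitor of SMAD signalling, was at 10.32 in the WT control, 9.77 and 9.52 on cuprizone and 10.13 and 9.68 in recovery, and in Trem2-/- at 10.35, then 10.22 and 9.14, then 10.21 and 9.57. The lowest Pmepa1 value was that of the Trem2-/- library titled 12 weeks, which carries the conflicting time label. Bin1, a membrane-curvature adaptor of endocytosis, was at 9.49 in the WT control, 9.23 and 8.68 on cuprizone and 9.46 and 8.92 in recovery, and in Trem2-/- at 9.53, then 9.44 and 8.90, then 9.48 and 8.91. The small GTPase gene Rhob varied little, from 10.09 to 10.41. Its 2 lowest libraries were also those of WT on cuprizone, at 10.12 and 10.09. In Trem2-/- Rhob stayed between 10.25 and 10.34 in all 5 libraries. The secreted members Sparc and Olfml3, a matricellular and an olfactomedin-like protein, ranged from 11.99 to 12.37 and from 10.78 to 11.27. Both were lowest in WT at 12 weeks of cuprizone, and Sparc was next lowest in WT at 4 weeks (12.03). The probe shared by the secreted ribonucleases Rnase4 and Ang ranged from 10.33, also in WT at 12 weeks of cuprizone, to 10.94 in the WT control.

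**Figure D2:**
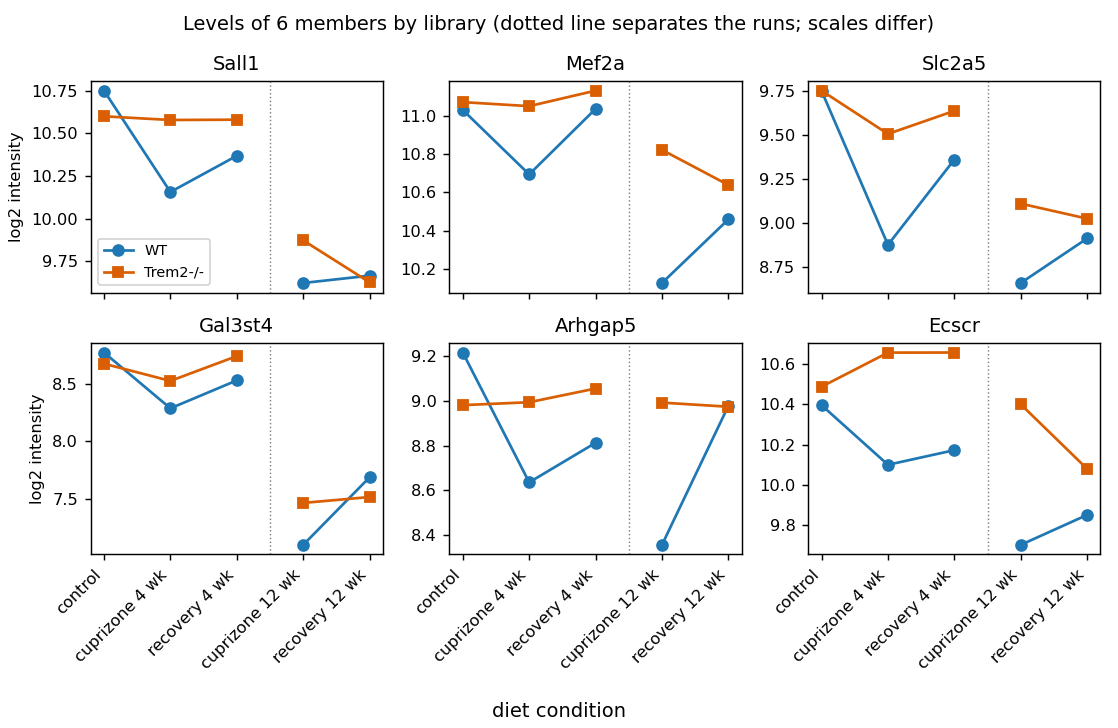
Log2 intensity of 6 members (panels, each with its own scale) in the 5 diet conditions, with WT as blue circles and Trem2-/- as orange squares, 1 library per point. Sall1, Mef2a, Slc2a5 and Arhgap5 dip in WT at 4 weeks of cuprizone and hardly move in Trem2-/-, except that Slc2a5 stands at 9.51 there against 9.75 in the control.

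The first comparison set the WT cuprizone libraries against the WT control. All 26 members were lower on cuprizone than in the control in the fit over both feeding times, from -1.07 ± 0.68 (SE) for Gal3st4 to -0.16 ± 0.21 for Fcrls, with a median of -0.46 against 0.01 over all genes tested. After Gal3st4, the largest differences were those of Slc2a5 (-0.98 ± 0.34), Sall1 (-0.86 ± 0.49), Crybb1 (-0.80 ± 0.35) and Arhgap5 (-0.72 ± 0.23). By role, the median was -0.62 for the 3 transcription factors, -0.72 for the 2 transporters and -0.60 for the 6 signalling, trafficking and other members. It was -0.45 for the 4 enzymes, -0.46 for the 9 surface proteins and -0.33 for the 2 secreted proteins. These values set libraries of both runs against a control of the first run, so they and their order include part of the difference between runs. Within the first run Gal3st4 was at -0.48 and Slc2a5 at -0.87. With the titled duration as a block they were at -0.54 and -0.77. No member passed the test (limma, Benjamini-Hochberg adjustment over 10792 genes, threshold 0.05), where 0.148% of all genes were called, and the smallest adjusted p was 0.769, for Arhgap5. At an unadjusted p under 0.05 there were 2 members, against 4.36% of all genes. Both cuprizone libraries were below the single control in 26 of 26 members, against 30.9% of all genes. With the titled duration as a block, which places the control beside the 4-week libraries, the median was -0.29, 6 members had an unadjusted p under 0.05 (8.98% of all genes did), and no member was called (0.973% of all genes were), with a smallest adjusted p of 0.176 for Slc2a5.

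Within the first run, where control and 4-week libraries can be set side by side, the WT differences ran from -0.87 for Slc2a5 to -0.06 for Ltc4s, with a median of -0.33 against 0.03 over all genes. Of the 26, 6 were lower by over 0.5, against 3.85% of all genes. These were Slc2a5, Crybb1 (64.8% of the control's intensity), Sall1 (66.3%), Arhgap5 (66.8%), Pmepa1 (68.3%) and Adgrg1 (70.2%). The WT 4-week cuprizone library was the lowest of all 6 libraries of the first run in 25 of 26 members, against 20.7% of all genes. The WT 12-week cuprizone library was the lowest of the 4 in the second run in 19 of 26, against 26.4%, and both held in 19 of 26, against 7.89%. The 7 members outside that count were Fcrls, Adgrg1, Selplg, Ltc4s, Hpgd, Mef2c and Pmepa1. Over the brightest 10% of genes (1080 genes), which hold 24 of the members, the median 4-week difference in WT was 0.03, and 44.2% of them were lower. In the control and the 4-week library the border macrophage markers summed to 1710 and 4160, the neutrophil markers to 6970 and 5960, and the microglial defining genes to 15000 and 13100. The part of other cells in the result was not tested.

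**Figure D3:**
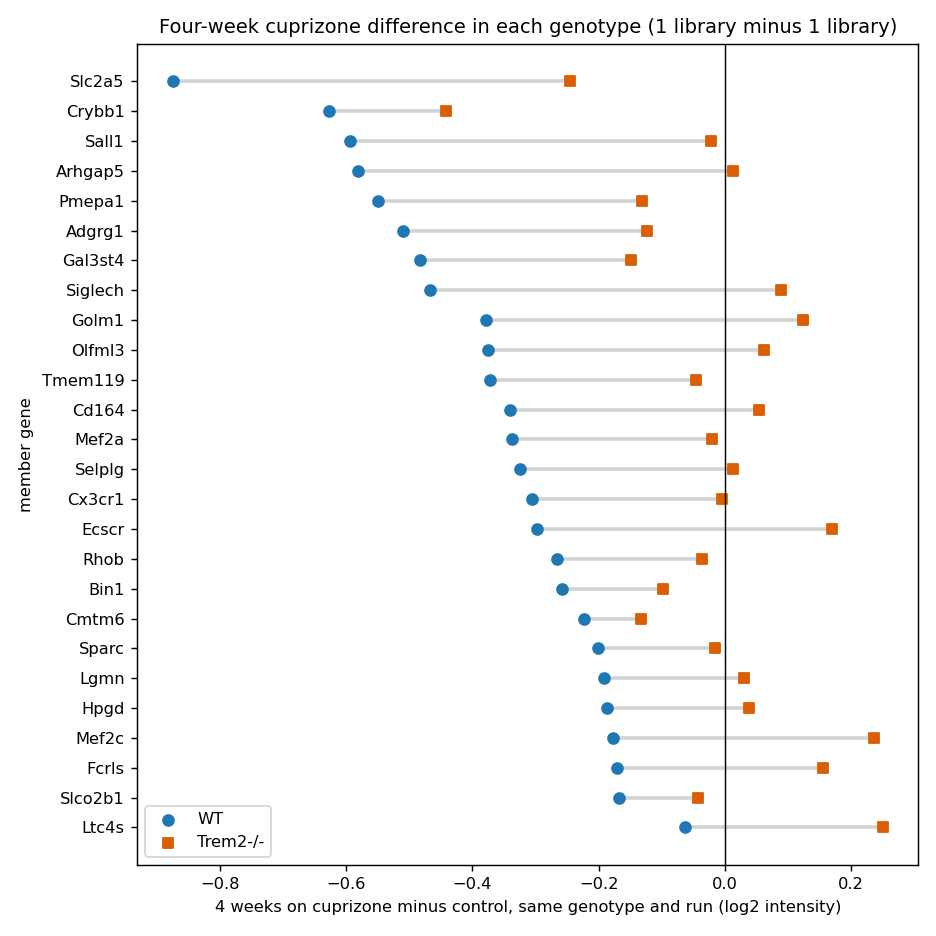
For each member (rows, ordered by the WT value), the log2 intensity after 4 weeks of cuprizone minus that of the control of the same genotype, in WT (blue circles) and Trem2-/- (orange squares). All 26 circles lie below 0, from -0.87 to -0.06, whereas 12 squares lie above 0 and 14 below it.

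The same comparison in Trem2-/- microglia gave 21 members lower and 5 higher, with a median of -0.17 against 0.01 over all genes, from -0.68 ± 0.68 for Gal3st4 to 0.17 ± 0.22 for Cd164. No member was called in limma's fit, nor was any gene (0% of 10792), and 0 members and 0.927% of all genes had an unadjusted p under 0.05. At 4 weeks, within the first run, the median was -0.01, with 12 members higher and 14 lower, and none was lower by over 0.5. Crybb1 (-0.44) and Slc2a5 (-0.25) were the lowest of them and Ltc4s (0.25) and Mef2c (0.24) the highest. At 12 weeks, across the runs, the median was -0.37, and Pmepa1 (-1.21) and Gal3st4 (-1.20) were the lowest. Both cuprizone libraries were below the control in 14 of 26 members, against 27% of all genes. With the duration block 12 members were higher and 14 lower, with a median of 0.00, and without the 12-week library the counts were again 12 and 14, with a median of -0.01. The summed border macrophage markers were 1200 in the Trem2-/- control and 3790 at 4 weeks of cuprizone. The part of these cells in the members' values was not tested.

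Over the 3 libraries of the first run the members' levels spanned a median of 0.33 in WT and 0.11 in Trem2-/-, whereas the medians over all genes tested were 0.29 and 0.25. The WT span was the wider one in 24 of 26 members, all but Ltc4s and Mef2c. The share of all genes with the wider span in WT was not counted. The WT span includes the 4-week cuprizone library, the lowest of the first run in 25 of 26 members. The wider span is therefore not a result separate from that one.

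The next comparison set the genotypes against each other on cuprizone. All 26 members were higher in Trem2-/- than in WT in the fit, from 0.03 ± 0.37 for Pmepa1 to 0.63 ± 0.26 for Ecscr, with a median of 0.27 against 0.00 over all genes. Slc2a5 (0.54 ± 0.27), Mef2a (0.53 ± 0.29), Arhgap5 (0.50 ± 0.19) and Golm1 (0.49 ± 0.20) followed Ecscr. None was called in limma's fit, where 0.334% of all genes were, and the smallest adjusted p was 0.952. At an unadjusted p under 0.05 there were 3 members, against 4.47% of all genes. With the titled duration as a block there were 6 such members, against 10.9% of all genes. Again none was called, against 1.42% of all genes, with a smallest adjusted p of 0.113 for Ecscr. This comparison and that of WT cuprizone with its control share the WT cuprizone libraries.

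At 4 weeks all 26 members were higher in the Trem2-/- library than in the WT library, from 0.14 for Rhob to 0.63 for Slc2a5, with a median of 0.28, whereas the median of all genes was -0.02. At 12 weeks 24 were higher, from -0.39 for Pmepa1 to 0.70 for Ecscr, with a median of 0.27 (0.01 over all genes). The Trem2-/- library exceeded the WT library at both feeding times in 24 of 26 members, against 27% of all genes, and the exceptions were Fcrls and Pmepa1. On a linear scale the Trem2-/- intensity was a median of 122% of that in WT at 4 weeks and 120% at 12 weeks. Over the brightest 10% of genes the median differences were -0.03 and 0.03. Border macrophage markers summed to 4160 in WT and 3790 in Trem2-/- at 4 weeks, neutrophil markers to 5960 and 4690, and microglial defining genes to 13100 and 14700. The part of these differences was not tested. The pooled count of 26 depended on both 4-week and 12-week libraries being present, since leaving 1 out sets one run against a mean of both. The median stayed positive with each library left out. Without the 4-week Trem2-/- library 17 members were higher and 9 lower (median 0.09), and without the 12-week WT library 20 were higher and 6 lower (median 0.10). When the library with the conflicting label was placed with the 4-week libraries in the block, 17 were higher and 9 lower (median 0.05).

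The difference between the genotypes in the cuprizone response, an interaction that subtracts each genotype's own control, was positive in 26 of 26 members. It ran from 0.00 for Pmepa1 to 0.73 ± 0.32 for Arhgap5, followed by Slc2a5, Ecscr, Siglech and Sall1, and the median was 0.27 against 0.00 over all genes. No member was called in limma's fit (0.00927% of all genes were, and 0 members had an unadjusted p under 0.05), so that a difference in response was not shown for any single member. Without the 4-week Trem2-/- library 19 members were positive, without the 12-week WT library 20, and with the conflicting library placed at 4 weeks in the block 18.

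Between the control libraries, which have no replicates, 13 members were higher and 13 lower in Trem2-/-, with a median of -0.01. The extremes were Arhgap5 at -0.24 and Cmtm6 at 0.21. In the fit over all 5 diets, blocked on diet condition, all 26 members were higher in Trem2-/-, with a median of 0.15. They ran from 0.01 ± 0.12 for Pmepa1 to 0.41 ± 0.11 for Ecscr. Over all genes tested the median was -0.002, and 50.5% were lower in Trem2-/-. Each condition holds both genotypes in the same run, so this comparison is matched for run. Leaving out either 4-week cuprizone library, which removes that condition, gave a median of 0.10 with 23 members higher. No member was called in limma's fit (0.259% of all genes were), and 5 members had an unadjusted p under 0.05, against 10.8% of all genes. These were Ecscr (adjusted p = 0.199), Slc2a5 (0.29 ± 0.11, adjusted p = 0.371), Hpgd (0.25 ± 0.10, adjusted p = 0.386), Golm1 (0.28 ± 0.11, adjusted p = 0.404) and Mef2a (0.27 ± 0.11, adjusted p = 0.415), all from limma. Ecscr was the largest of the 26 in this fit and was higher in Trem2-/- in 5 of 5 conditions, by 0.09 in the controls, 0.56 and 0.70 on cuprizone and 0.49 and 0.23 in recovery.

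**Figure D4:**
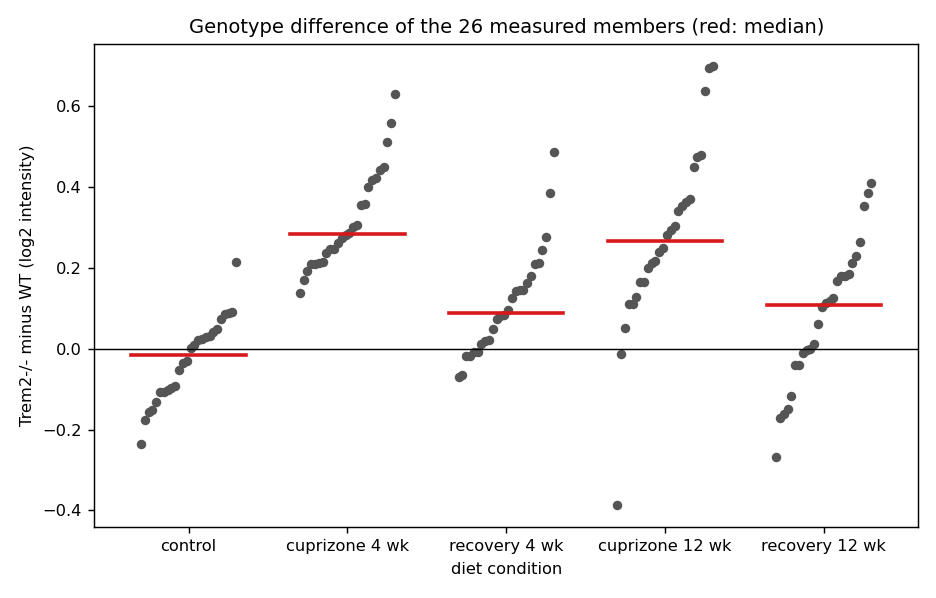
Log2 intensity in Trem2-/- minus that in WT for the 26 members (points, sorted within each condition) in the 5 diet conditions, 1 library of each genotype per condition, with the median as a red line. The medians are -0.01 in the controls, 0.28 and 0.27 on cuprizone at 4 and 12 weeks, and 0.09 and 0.11 after recovery.

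Recovery was compared with cuprizone next, within the same run at each feeding time. In WT 24 members were higher in recovery than on cuprizone, with a median of 0.18. Over all genes tested the median was -0.002, and 50.3% were lower in recovery. The members' largest differences were those of Gal3st4 (0.41 ± 0.56), Arhgap5 (0.40 ± 0.19), Slc2a5 (0.37 ± 0.27), Mef2a (0.34 ± 0.29) and Golm1 (0.33 ± 0.20). The exceptions among the members were the enzymes Ltc4s and Hpgd. No member and no gene was called in limma's fit (0%), and 0 members had an unadjusted p under 0.05, against 2.73% of all genes. After 4 weeks of cuprizone 25 of 26 were higher in recovery, with a median of 0.21, and after 12 weeks 20 were, with a median of 0.10. Recovery exceeded cuprizone at both feeding times in 20 of 26, against 26.4% of all genes. The cuprizone library is part of both this difference and that from the control, so they are not independent. In the 4-week WT libraries Tmem119 was 0.37 below the control on cuprizone and 0.08 above it in recovery, and Slc2a5 was 0.87 below and then 0.39 below. Sall1 was 0.59 below the control on cuprizone and still 0.38 below it in recovery, and Arhgap5 0.58 and then 0.40 below. The count of 24 rested on pairs within a run: without the 4-week recovery library it was 11, and without the 12-week cuprizone library 13.

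In Trem2-/- microglia 13 members were higher and 13 lower in recovery than on cuprizone, with a median of -0.02. The largest differences were those of Hpgd (-0.27 ± 0.35), Pmepa1 (0.21 ± 0.37), Ecscr (-0.16 ± 0.26), Gal3st4 and Slco2b1. No member and no gene was called in limma's fit (0%), and 0 members had an unadjusted p under 0.05. Recovery exceeded cuprizone at both feeding times in 4 of 26, against 22.1% of all genes. By feeding time the medians were 0.00 after 4 weeks and -0.05 after 12 weeks. Leaving out 1 library set the runs against each other: 2 members were higher without the 4-week recovery library and 25 without the 12-week recovery library. Dropping the 4-week cuprizone library gave 23 higher, and dropping the 12-week one gave 3. A block that placed the conflicting library at 4 weeks gave 25.

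Against the control, all 26 members were lower in WT recovery, with a median of -0.32 and Sall1 the lowest at -0.73 ± 0.49, followed by Gal3st4, Hpgd, Crybb1 and Slc2a5. In Trem2-/- 21 were lower, with a median of -0.26 and Gal3st4 the lowest at -0.54 ± 0.68, followed by Sall1, Crybb1, Pmepa1 and Cmtm6. Of all genes tested, 50.7% were lower in WT recovery and 50.5% in Trem2-/- recovery. No member and no gene was called in limma's fit in either genotype (0% in both), and 0 members had an unadjusted p under 0.05, against 2.24% and 1.4% of all genes. Within the first run the WT median was -0.16, with 21 members lower, and the Trem2-/- median was 0.01, with 13 lower. Across the runs the medians were -0.57 and -0.51. With the duration block the WT median was -0.12, with 24 members lower, and the Trem2-/- median was 0.00, with 14 lower. Leaving out the 12-week recovery library of a genotype leaves the values within the first run.

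Between the genotypes in recovery, 22 members were higher in Trem2-/-, with a median of 0.11. Over all genes tested the median was -0.005, and 51.2% were lower in Trem2-/-. The members ran from -0.14 ± 0.34 for Slco2b1 to 0.36 ± 0.26 for Ecscr, followed by Hpgd, Ltc4s, Slc2a5 and Golm1. No member was called in limma's fit (0.0278% of all genes were), and 0 members had an unadjusted p under 0.05. Trem2-/- exceeded WT at both feeding times in 11 of 26, against 26.3% of all genes. Without the 4-week Trem2-/- or the 12-week WT recovery library 7 members were higher.

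The libraries titled 12 weeks differed from those titled 4 weeks in most members. In a fit over the 8 cuprizone and recovery libraries with the group as a block, 18 of 26 members fell and none rose (limma, adjusted p under 0.05), where 20.3% of all genes were called in either direction and 12.1% were called lower. The median was -0.45 against -0.04 over all genes, and 25 of 26 members were lower, against 55.1% of all genes. All 4 enzymes, all 3 transcription factors and both transporters fell, as did 6 of 9 surface proteins and 3 of 6 of the signalling, trafficking and other members, but neither of the 2 secreted proteins. Every member that fell did so in a comparison where feeding time and run of sample numbers are the same split of the libraries. A longer diet, a difference between the runs and any difference in age cannot be told apart.

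Gal3st4 fell the most, to 47.5% of its 4-week intensity (-1.07 ± 0.11, limma adjusted p = 0.00058). Next were Ltc4s (-0.75 ± 0.12, adjusted p = 0.0029, limma), Sall1 (-0.72 ± 0.11, adjusted p = 0.0032, limma), Pmepa1 (-0.60 ± 0.14) and Hpgd (-0.60 ± 0.12). Mef2c (-0.55 ± 0.11) and Mef2a (-0.47 ± 0.11) fell to 68.4% and 72.4% of their 4-week intensity. Among the surface proteins Cmtm6, Siglech, Selplg, Adgrg1, Tmem119 and Ecscr fell, by 0.55 to 0.39. The 8 members that were not called were Golm1, Cx3cr1 (-0.17 ± 0.10, limma adjusted p = 0.275), Sparc, Olfml3, Fcrls, Arhgap5, Rhob (0.00 ± 0.11) and Cd164, the last at 0.14 ± 0.10. In 20 of 26 members the 12-week library was below the 4-week library in all 4 groups, against 24.5% of all genes.

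**Figure D5:**
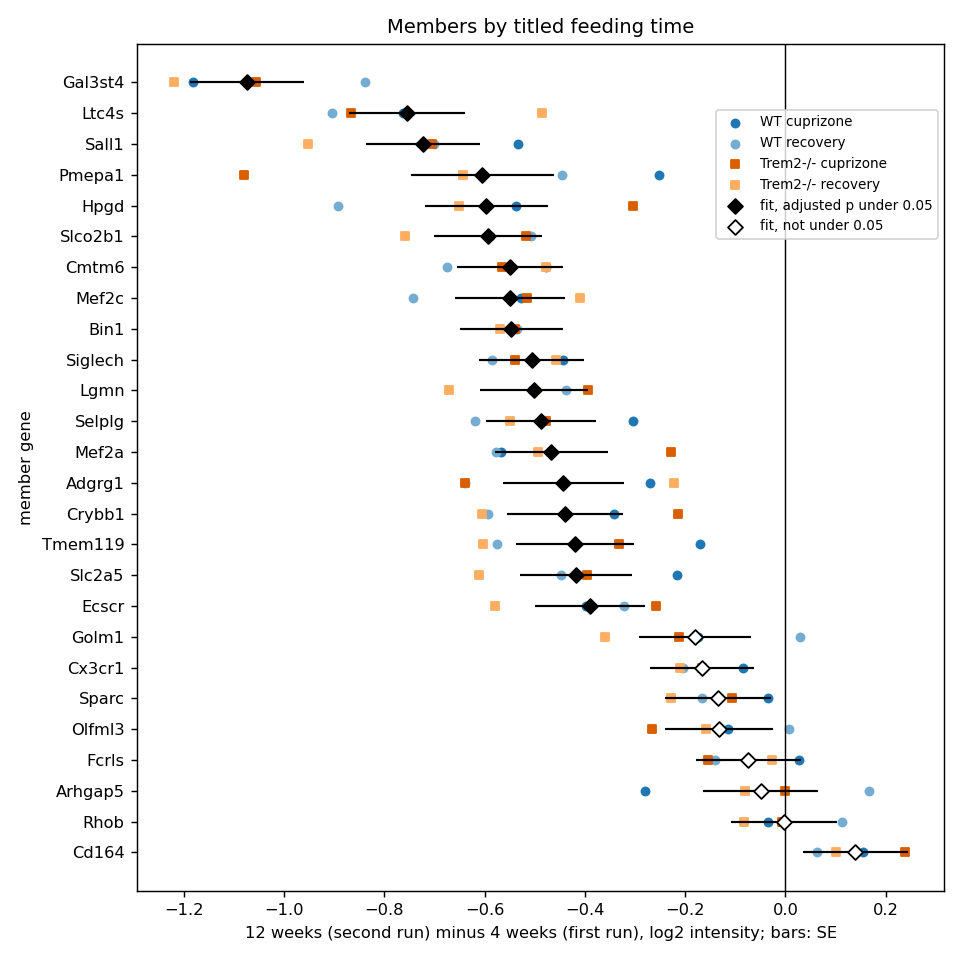
Difference between the libraries titled 12 and 4 weeks for each member (rows, ordered by the fit), with the 4 group differences as coloured points and the fitted difference as a diamond with its SE as a bar. The 18 filled diamonds passed the test and lie between -1.07 and -0.39, and the 8 open ones did not pass it.

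The calls by feeding time held to different degrees under other settings. Without the filter on dim genes 17 were called (Ecscr was not), and with quantile normalization 15 (Adgrg1, Ecscr and Tmem119 were not). Leaving out a library also removes its partner from the blocked fit. Leaving out either Trem2-/- recovery library left 9 of the 18 calls, either WT recovery library 11, either Trem2-/- cuprizone library 13 and either WT cuprizone library 14. Bin1, Cmtm6, Gal3st4, Hpgd, Ltc4s, Mef2c, Sall1, Siglech and Slco2b1 (9 members) were called in each of these fits. Without the Trem2-/- recovery pair the limma adjusted p of the others was 0.055 for Adgrg1, 0.112 for Crybb1, 0.139 for Ecscr, 0.063 for Lgmn, 0.073 for Mef2a, 0.071 for Pmepa1, 0.064 for Selplg, 0.12 for Slc2a5 and 0.135 for Tmem119. Without the WT recovery pair it was 0.102 for Adgrg1, 0.09 for Crybb1, 0.07 for Ecscr, 0.063 for Mef2a, 0.0503 for Selplg, 0.077 for Slc2a5 and 0.107 for Tmem119, again in limma. Adgrg1 and Ecscr were not called in any of these 4 fits, with an adjusted p of 0.059 and 0.103 in limma without the WT cuprizone pair and 0.095 and 0.052 without the Trem2-/- cuprizone pair. That last fit also lost Pmepa1 (0.056), Slc2a5 (0.065) and Tmem119 (0.063), and the fit without the WT cuprizone pair lost Crybb1 (0.067) and Mef2a (0.077). Beside this difference, the other-cell markers moved between the same libraries: all 6 neutrophil markers tested fell, with a median of -3.96, as did all 7 border macrophage markers (-1.28) and all 3 monocyte markers (-1.84). Of 4 astrocyte markers tested 2 fell, with a median of -0.44, and 1 of 5 microglial defining genes fell, with a median of -0.26. Their part in the members' fall was not tested. Over the brightest 10% of genes 20.2% were called lower, with a median of -0.08.

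Other lists of related genes show where the members stand. Of 17 genes of disease-associated microglia, all were higher on cuprizone in WT, 8 of them called, with a median of 2.51, and all were lower in Trem2-/- than in WT on cuprizone, 10 of them called, with a median of -2.16. The members' medians in those comparisons were -0.46 and 0.27. Of 18 other microglia-enriched genes, 16 were lower on cuprizone in WT (median -0.33, 0 called) and 11 were higher in Trem2-/- than in WT on cuprizone (median 0.06, 0 called), and 8 fell between 4 and 12 weeks. Of 7 purinergic genes measured, receptors and ectoenzymes by which microglia sense nucleotides, 5 were lower on cuprizone in WT (median -0.36, 0 called) and 3 fell by feeding time. Of 14 TGF-beta pathway genes tested, 11 were lower on cuprizone in WT and 12 were higher in Trem2-/- on cuprizone, with medians of -0.17 and 0.11 and 0 called in either. By feeding time 3 of those 14 rose and 2 fell, with a median of -0.01. Of 13 other myeloid and microglial transcription factors, 10 were lower on cuprizone in WT (median -0.20, 0 called), and 1 rose and 3 fell by feeding time. All these calls are limma's at an adjusted p under 0.05. Of all genes tested 0.148% were called in WT on cuprizone, 0.334% between the genotypes on cuprizone and 20.3% by feeding time, and at an unadjusted p under 0.05 the shares were 4.36%, 4.47% and 36.6%.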

How the data were processed

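The authors deposited 1 table of linear intensity values, 1 column per array, with no summarization, background correction or normalization given in the sources used here. Column medians of the deposited intensity lay between 37.6 and 39.3, so log2 was taken with no further scaling. Of 24567 probes, 21259 named 1 gene, 1274 named several and 2034 were not listed. The brightest probe stood for a gene. A gene was tested if it lay above the median of the table (38.5, or 5.27 as log2) in 2 or more arrays.

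The test was that of limma 3.58.1 under R 4.3.3 (lmFit, eBayes, Benjamini-Hochberg over 10792 genes, threshold 0.05): 6 group means with 4 residual degrees of freedom, genotype with diet condition as a block, and feeding time with group as a block. Each control group is 1 library, taken to have the spread of the other groups. In the fit of 6 group means, each of those other groups holds 1 library of each feeding time. The SE and p-values of that fit therefore include the difference between feeding times and runs, and are not those of replicates alike in both. The labels name no replicate animals, so p-values measure only the spread between these samples, which may be technical, and the number of arrays limits the precision. Only the fit of 6 group means was tried on simulated data, for WT cuprizone minus control and for the genotypes on cuprizone. Those data held no difference between runs or feeding times. The fits with a block, including that by feeding time, were not tried in this way.

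Alternatives were the titled duration as a block (also with the conflicting library at 4 weeks), the mean over probes, no filter, median centring, quantile normalization, an offset of 16, single genotypes, no controls, and each library left out. The members and gene lists were chosen with earlier results of these data known. Members named with values in every library are those called in any comparison, the 3 transcription factors and the 5 largest differences of each comparison. Protein identity of related members was planned and not run.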

Additional observations from a re-analysis of the deposited data

Results flagged for a closer look

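Between the genotypes, 8 differences in a member's response had every WT library on one side of 0 and every Trem2-/- library on the other. The same pattern was about as common or more common among all genes tested: it held for 3 of 26 members (11.5%) and 11.6% of all genes for cuprizone minus control, for 11.5% and 11.7% for recovery minus cuprizone, and for 2 members (7.69%) and 12.6% of all genes for recovery minus control. For cuprizone minus control the Trem2-/- response exceeded that of WT by 0.73 for Arhgap5, 0.44 for Cd164 and 0.24 for Fcrls, and the interaction in limma passed the threshold for none of the 3. Arhgap5 was lower by 0.58 and 0.86 in the WT libraries and higher by 0.01 and 0.01 in the Trem2-/- libraries. For recovery minus cuprizone the Trem2-/- difference was below that of WT, at -0.19 for Cx3cr1, -0.25 for Siglech and -0.39 for Slco2b1, which was not tested. For recovery minus control it was above that of WT by 0.27 for Cd164 and 0.23 for Fcrls, also not tested. Both feeding times were set against the same control library of a genotype, so their signs are not independent.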

How the results depend on the processing

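No alternative gave a called member in the 10 comparisons without calls. Members called between 12 and 4 weeks numbered 18, then 17 with no filter, 15 with quantile normalization, 13 without the conflicting library, and 9 to 14 with each library left out. With quantile normalization the median member difference between Trem2-/- and WT was 0.34 on cuprizone, 0.14 in recovery and 0.34 for the response. With the conflicting library at 4 weeks in the block these were 0.050 on cuprizone and 0.10 for the response, and the Trem2-/- recovery difference from cuprizone was 0.18. With each library left out, the medians ran from -0.016 to 0.43 for WT recovery minus cuprizone, -0.27 to 0.17 for the same in Trem2-/-, 0.088 to 0.51 for Trem2-/- minus WT on cuprizone, -0.15 to 0.38 in recovery and 0.15 to 0.49 for the response. Leaving out 1 library of a pair sets one run against a mean of both, by construction. Over members and settings, the sign of a difference changed in 0 of 442 values for WT cuprizone minus control and 18 of 442 for the same in Trem2-/-, in 28 and 57 of 468 for recovery minus cuprizone in WT and Trem2-/-, and in 11 and 28 of 442 for recovery minus control. It changed in 24 of 442 between the genotypes on cuprizone, 39 of 442 in recovery, 22 of 390 for the response, 10 of 416 over the 5 diets and 8 of 364 by feeding time. All measured members were above the table's median in every library. That median is not a measured background, so a limit set by background was not tested.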
